A study of Homo sapiens with 6 samples.

Results

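The secretory carrier membrane proteins (SCAMPs) are a family of integral membrane proteins of the recycling and secretory pathways, encoded by SCAMP1 to SCAMP5. The N-terminal segments of SCAMP1, SCAMP2 and SCAMP3 carry repeats of asparagine, proline and phenylalanine (NPF motifs), which are ligands of EH domains, whereas SCAMP4 and SCAMP5 lack these repeats. EH domains are found in scaffold proteins of clathrin-coated pits such as EPS15, a substrate of the epidermal growth factor receptor, and intersectin 1 (ITSN1), which binds SCAMP1. The genes described here are the 5 SCAMP genes, SCAMP1-AS1 (a long non-coding RNA gene next to SCAMP1), EPS15 and ITSN1, taken by gene name from the 58735 genes of the expression table. All 8 were found and all 8 passed the filter on low values, with 74 to 2362 reads per gene and library. SCAMP1 is the gene that was targeted, so its fall describes the knockdown.

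The RNA was total RNA from NCI-N87 cells, an established human gastric cancer cell line, in 2 groups of 3 libraries. The shCtrl cells, labelled shNC, carried the empty lentiviral vector pSIH-H1-puro, and the shS1#1 cells, labelled shScamp1, carried the same vector with a short hairpin RNA against SCAMP1. Both were stable populations selected with puromycin (2 μg/ml) and harvested at about 80% confluence, and neither is described as a single clone. The labels call the libraries biological replicates without saying whether they came from separate infections, so p-values measure the spread between these libraries only. The study used a further hairpin (shS1#2) in other assays, and it was not analysed here, so effects of SCAMP1 loss and of this single hairpin cannot be told apart.

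The shS1#1 target is shown first because the knockdown of SCAMP1 and the levels of its paralogs are read against it. It lies at chr5:78477147-78477167 of GRCh38 on the forward strand, in the last exon (exon 9 of 9) of the transcript SCAMP1-207, within the 3′ UTR, and 2 of the 7 annotated SCAMP1 transcripts contain it. It is printed from the GENCODE 29 transcript, and capitals mark the 7 bases that pair with bases 2 to 8 of the guide strand.
shS1#1 target in SCAMP1: ccaaacctgtagtTACAGAAa
No transcript of another member held this site. The fewest mismatches over its 21 bases were 8 in SCAMP2, SCAMP4, SCAMP5 and SCAMP1-AS1, 9 in SCAMP3, 7 in EPS15 and 6 in ITSN1. The 7-base match to the guide (TACAGAA, sense strand only) occurred 2 times in the 3′ UTR of the longest coding SCAMP1 transcript and 0 times in those of SCAMP2, SCAMP3, SCAMP4, SCAMP5, EPS15 and ITSN1. Among 11513 genes tested with such a 3′ UTR, 17.6% held the match at least once. These are matches of letters in annotated transcripts and do not measure binding.

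SCAMP1 and SCAMP1-AS1 lie head to head on chromosome 5. SCAMP1-AS1 (78342365 to 78360507, reverse strand) and SCAMP1 (78360583 to 78479071, forward strand) leave 75 bases between them, and this stretch is shown because SCAMP1 was called in shS1#1 cells and SCAMP1-AS1, on its other side, was not. It is read from the RefSeq promoter table (GRCh38.p14), at chr5:78360508-78360582 on the forward strand, with CpG dinucleotides in capitals.
Between SCAMP1-AS1 and SCAMP1: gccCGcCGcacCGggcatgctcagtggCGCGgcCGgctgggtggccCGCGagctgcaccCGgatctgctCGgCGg
It holds 11 CpG dinucleotides and 80.0% G and C. RefSeq places the start of SCAMP1 at 78360617, inside the SCAMP1 span given above. The same stretch, taken by its distance from the RefSeq start, was read in 35116 promoter windows. It had a median of 3 CpG dinucleotides and of 60.0% G and C there. Neither a GC box (GGGCGG, either strand) nor a CCAAT box (CCAAT, either strand) is in the stretch of SCAMP1. Of the promoters, 25.8% and 16.0% held these letters in that stretch. Any part of this stretch in the levels of SCAMP1 or SCAMP1-AS1 was not tested.

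The libraries held 14311769 to 15988700 reads on genes. shS1#1 replicate 2 stood apart from the others. Mitochondrial genes took 9.21% of its reads, against 6.09% to 6.78% in the other 5 libraries. A chi-square of read counts per gene was 27.0 and 34.5 between it and the other shS1#1 libraries, 2.64 between those, and 1.77 to 2.24 between shCtrl libraries, so no library was a copy of another. The chi-square against shCtrl libraries was 24.8 to 26.5 for shS1#1 replicates 1 and 3 and 57.0 to 58.3 for replicate 2. The main results are therefore also given without shS1#1 replicate 2. The 6 epithelial markers examined (EPCAM, CDH1, KRT8, KRT18, KRT19 and ERBB2) were at 54.5 to 3129 FPKM in each library, with sums of 5421 to 5702 in shCtrl and 9056 to 10009 in shS1#1. The difference of the group means was 1468, 1124 and 1156 FPKM for KRT8, KRT18 and KRT19. It was 147, 20.6 and -4.92 FPKM for ERBB2, CDH1 and EPCAM, so the sums mainly follow the keratins. The 6 markers of leukocytes, endothelium, fibroblasts and neuroendocrine cells were at 0.773 FPKM or less, with COL1A2 at 0 reads in all libraries.

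Levels are FPKM, fragments mapped to a gene relative to its length and to the library's depth, as scaled by the authors between libraries. Changes are log2 fold changes of shS1#1 against shCtrl on log2(FPKM + 0.1), which understates the change of low genes, tested with limma over 15556 genes, and a gene is called at a Benjamini-Hochberg adjusted p under 0.05. By this rule 14% of all genes tested were called, 8.82% higher and 5.17% lower, and 3.16% were also past an absolute log2 fold change of 1. When protein-coding genes were fitted alone, 22.8% of them were called. Of the 8 genes, 2 were called, SCAMP2 (higher) and the targeted SCAMP1 (lower), and SCAMP1 was the only member past the fold change of 1. Groups were fully separate in 5 of the 8 members (SCAMP1, SCAMP2, SCAMP3, SCAMP4 and ITSN1), as they were in 41.4% of all genes tested.

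**Figure D1:**
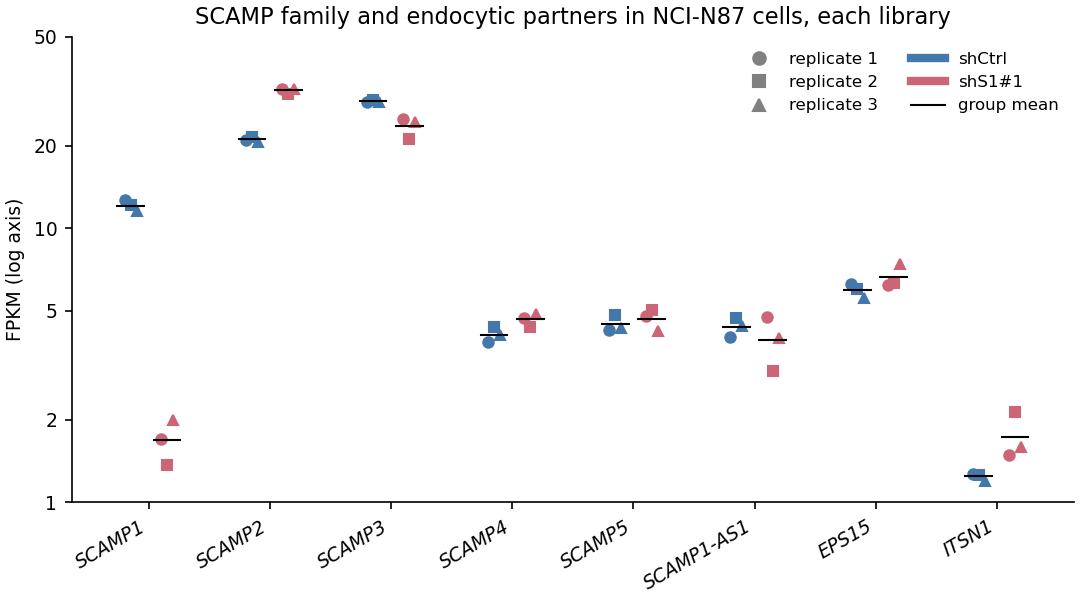
FPKM of the 8 genes in each library (log axis); symbols mark the replicate number, colours the group and black lines the group mean. SCAMP1 was the third most abundant SCAMP gene in shCtrl cells (mean 12.1 FPKM) and the least abundant in shS1#1 cells (1.69 FPKM), whereas SCAMP2 rose from 21.1 to 31.8 FPKM.

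The 3 shCtrl libraries held SCAMP1 at 12.6, 12.1 and 11.5 FPKM, from 1024, 1031 and 909 reads. In shS1#1 it was at 1.70, 1.37 and 1.99 FPKM, from 127, 96 and 149 reads. Every shS1#1 library lay far below every shCtrl library, and replicate 2 was the lowest. The mean fell by 86.0% (log2 fold change -2.78, 95% interval -3.11 to -2.45, adjusted p = 0.000248 by limma). In bulk RNA, a lower level in every cell and a loss of the transcript in most cells with full expression in the rest cannot be told apart.

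SCAMP2, a paralog of the recycling pathway that binds the small GTPase ARF6 and phospholipase D, rose in shS1#1 cells. It was at 21.1, 21.6 and 20.6 FPKM in shCtrl and at 32.2, 31.0 and 32.3 FPKM in shS1#1 libraries. The groups were far apart relative to their spread, with means of 21.1 ± 0.497 and 31.8 ± 0.724 FPKM (SD, n = 3 each), an increase of 50.8%. On the log2 scale the change was 0.59 (95% interval 0.45 to 0.73, standard error 0.06, adjusted p = 0.00206 by limma), or 1.37- to 1.66-fold over the interval. SCAMP2 was called under all 16 alternatives that kept the adjusted threshold, with log2 fold changes of 0.56 to 0.61 and an adjusted p of 0.0286 at most. It lies on chromosome 15 from 74843730 to 74873365 on the reverse strand, and no other annotated gene overlaps it.

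SCAMP3, which is phosphorylated by the epidermal growth factor receptor and takes part in endosomal sorting, was the most abundant family member in shCtrl cells. It was at 28.874, 29.391 and 28.999 FPKM in shCtrl and at 25.1, 21.2 and 24.3 FPKM in shS1#1 libraries. All shS1#1 values were below all shCtrl values and replicate 2 was the lowest. The means were 29.1 ± 0.270 and 23.5 ± 2.07 FPKM (SD, n = 3 each). The change was -0.31 on the log2 scale (95% interval -0.50 to -0.11, standard error 0.08, adjusted p = 0.0532 by limma), which missed the threshold. Without shS1#1 replicate 2, the library with the higher mitochondrial share, the log2 fold change was -0.23 and was called (adjusted p = 0.00625 by limma). SCAMP3 was called under 5 of 16 alternatives, with an adjusted p of 0.00625 to 0.179 over all of them and log2 fold changes of -0.36 to -0.23. SCAMP3 lies on chromosome 1 from 155255979 to 155262430.

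SCAMP4 and SCAMP5 are the family members without NPF repeats, and SCAMP5 is best known from neurons, where it acts in synaptic vesicle recycling. SCAMP4 was at 3.85, 4.36 and 4.09 FPKM in shCtrl and at 4.70, 4.38 and 4.88 FPKM in shS1#1 libraries, so that the lowest shS1#1 value exceeded the highest shCtrl value only narrowly. Its log2 fold change was 0.18 (95% interval -0.02 to 0.38, adjusted p = 0.201 by limma). The same strand of chromosome 19 carries ADAT3 within the SCAMP4 span, and reads shared by them cannot be assigned with certainty. SCAMP5 was at 4.25, 4.84 and 4.33 FPKM in shCtrl and at 4.79, 5.02 and 4.21 FPKM in shS1#1 libraries, and the groups overlapped. Its log2 fold change was 0.06 (95% interval -0.18 to 0.30, adjusted p = 0.710 by limma), an interval that reaches from 0.886- to 1.23-fold. SCAMP2 and SCAMP5 both lie on chromosome 15, with 83.9 kb between them. Most of RPP25 lies in this gap, and it overlaps the first 246 bases of SCAMP5 on the opposite strand. RPP25 averaged 24.3 ± 1.38 FPKM under shCtrl against 21.3 ± 1.72 FPKM with the hairpin (SD, n = 3 each) and was not called (adjusted p = 0.188 by limma).

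Within each library the 5 paralogs had a clear order of levels at the top. In all 3 shCtrl libraries the order was SCAMP3, SCAMP2, SCAMP1, SCAMP5 and SCAMP4, with overlapping ranges for SCAMP5 and SCAMP4 over libraries (4.47 ± 0.322 and 4.10 ± 0.257 FPKM, SD, n = 3 each) but ratios of SCAMP4 to SCAMP5 of 0.906, 0.901 and 0.944 within them. In all 3 shS1#1 libraries SCAMP2 was first, SCAMP3 second and SCAMP1 last, and the order of SCAMP4 and SCAMP5 varied. The ratio of SCAMP2 to SCAMP3 was 0.730, 0.736 and 0.712 in shCtrl and 1.29, 1.46 and 1.33 in shS1#1 libraries.

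The summed FPKM of the 5 SCAMP genes changed little compared with SCAMP1 itself. It was 70.7, 72.3 and 69.6 in shCtrl and 68.5, 63.0 and 67.7 in shS1#1 libraries, lowest in shS1#1 replicate 2. The mean went from 70.9 ± 1.39 to 66.4 ± 2.99 FPKM (SD, n = 3 each), a difference of -6.32%, or of -3.90% without that library. SCAMP2 to SCAMP5 together were at 58.0, 60.2 and 58.1 FPKM in shCtrl and at 66.8, 61.6 and 65.7 FPKM in shS1#1 libraries, a mean difference of 10.1%. For both sums the groups did not overlap and the exact two-sided permutation test gave p = 0.10, the smallest that 3 libraries against 3 allow. With values rescaled to TPM, the sum of SCAMP2 to SCAMP5 gave p = 0.20 in the same exact test. The difference of the group means was -10.4 FPKM for SCAMP1, 10.7 FPKM for SCAMP2 and -5.56 FPKM for SCAMP3.

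The share of the summed SCAMP FPKM held by each paralog does not depend on the scaling between libraries. SCAMP1 held 17.9%, 16.8% and 16.6% in shCtrl and 2.49%, 2.18% and 2.95% in shS1#1 libraries. SCAMP2 held 29.8%, 29.9% and 29.7% in shCtrl, a spread of 0.121 percentage points (SD, n = 3), and 47.1%, 49.2% and 47.7% in shS1#1 libraries. SCAMP3 held 40.9%, 40.6% and 41.7% in shCtrl and 36.6%, 33.6% and 36.0% in shS1#1 libraries, so its share was lower although SCAMP1 took less of the sum. SCAMP4 held 5.78% ± 0.303 in shCtrl and 7.01% ± 0.175 in shS1#1 cells, and SCAMP5 held 6.31% ± 0.350 and 7.06% ± 0.883 (SD, n = 3 each). Without shS1#1 replicate 2 the difference between groups went from 18.2 to 17.6 percentage points for SCAMP2, from -5.65 to -4.77 for SCAMP3 and from 0.755 to 0.298 for SCAMP5. The exact two-sided permutation p was 0.10 for SCAMP1 to SCAMP4, the smallest possible, and 0.30 for SCAMP5 (0.117 and 0.30 after Benjamini-Hochberg adjustment over 7 tests of sums and shares). As the shares add up to 100%, they are not independent of each other.

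Among SCAMP2 to SCAMP5 alone, which leaves the targeted gene out of the sum, SCAMP2 went from 35.9% ± 0.376 to 49.2% ± 1.05 and SCAMP3 from 49.5% ± 0.612 to 36.3% ± 1.69 (SD, n = 3 each). SCAMP4 was at 6.97% and 7.19% and SCAMP5 at 7.60% and 7.24% of this sum, with overlapping groups for each. This way of forming the shares was chosen after the values were seen.

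**Figure D2:**
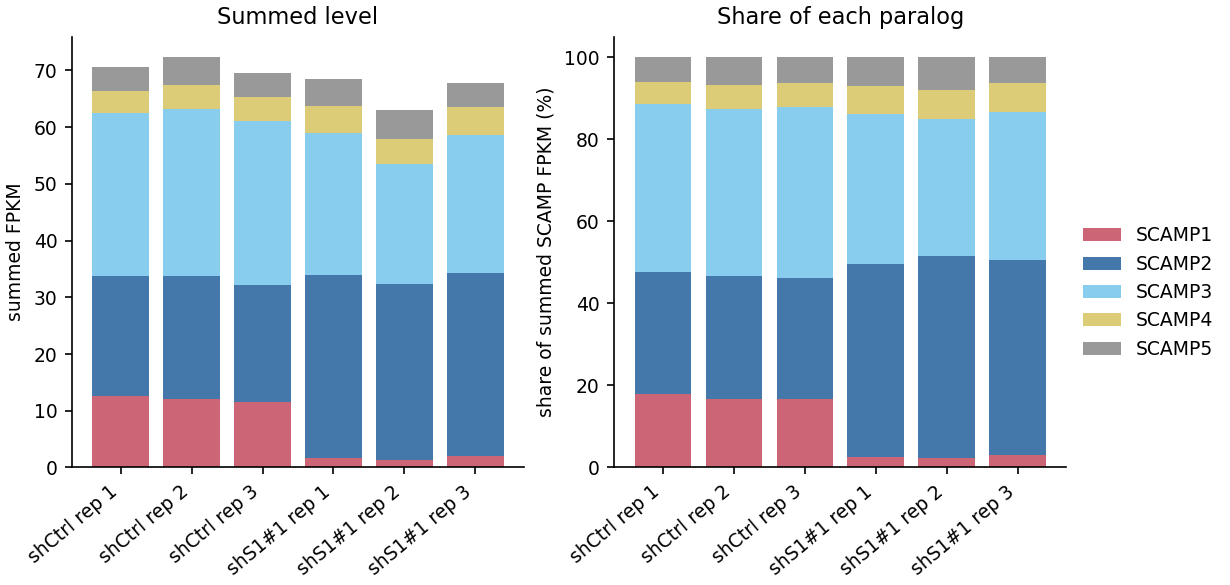
Stacked bars of the 5 SCAMP genes in each library, as summed FPKM (left) and as the share of that sum in percent (right). The sums lie between 63.0 and 72.3 FPKM, and the SCAMP2 share is 29.7% to 29.9% in shCtrl and 47.1% to 49.2% in shS1#1 libraries.

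SCAMP1-AS1, separated from SCAMP1 by 75 bases, gave no call. It was at 4.01, 4.72 and 4.41 FPKM in shCtrl and at 4.74, 3.02 and 3.97 FPKM in shS1#1 libraries, from 74 to 141 reads. The groups overlapped and shS1#1 replicate 2 was the lowest of all. The log2 fold change was -0.18 (95% interval -0.59 to 0.23, standard error 0.17, adjusted p = 0.506 by limma), and -0.01 without that replicate (adjusted p = 0.949 by limma). The whole interval lies above that of SCAMP1 (-3.11 to -2.45).

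Other genes near SCAMP1 also gave no call. Of 14 genes within 500 kb of it, 5 were expressed highly enough to be tested (SCAMP1-AS1 among them). By limma 0 of these were called, against 14% of all genes. None had an unadjusted p under 0.05 either, against 30.7% of all genes. LHFPL2, the nearest gene beyond the end of SCAMP1 (6.14 kb), had a log2 fold change of 0.14 (adjusted p = 0.371). AP3B1, which encodes a subunit of the AP-3 adaptor of lysosomal sorting, was at -0.10 (adjusted p = 0.376), and ARSB, a lysosomal sulfatase, at 0.08 (adjusted p = 0.754). TBCA, a tubulin-folding cofactor, was at 42.0, 43.1 and 46.1 FPKM in shCtrl and at 40.8, 18.0 and 40.5 FPKM in shS1#1 libraries, so that its log2 fold change of -0.50 (adjusted p = 0.336) rested on replicate 2, without which it was -0.11.

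**Figure D3:**
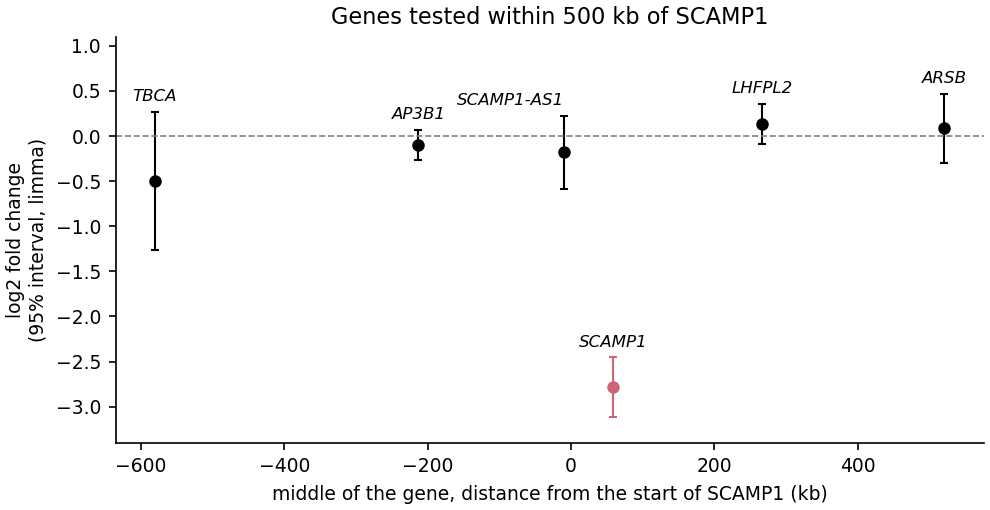
Log2 fold change with its 95% interval (limma) of SCAMP1 and the 5 genes tested within 500 kb of its span, against the distance of the middle of each gene from the start of SCAMP1 in kb. SCAMP1 is at -2.78, and the intervals of the other genes include 0.

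The EH-domain partners EPS15 and ITSN1 were not called. EPS15 was at 6.28, 5.99 and 5.56 FPKM in shCtrl and at 6.23, 6.32 and 7.395 FPKM in shS1#1 libraries, with overlapping groups. Its log2 fold change was 0.16 (95% interval -0.07 to 0.39, adjusted p = 0.313 by limma), an interval of 0.951- to 1.31-fold. ITSN1, a scaffold that links endocytosis to the actin cytoskeleton, was at 1.267, 1.264 and 1.202 FPKM in shCtrl and at 1.49, 2.14 and 1.59 FPKM in shS1#1 libraries. All shS1#1 values were above all shCtrl values, with replicate 2 the highest. The means were 1.24 ± 0.0364 and 1.74 ± 0.348 FPKM (SD, n = 3 each), and the log2 fold change of 0.44 (95% interval 0.05 to 0.82, standard error 0.16, adjusted p = 0.125 by limma) did not pass the threshold. Without shS1#1 replicate 2 it was 0.29 (adjusted p = 0.137 by limma), and over 16 alternatives the adjusted p was between 0.0503 and 0.289. The part of the higher mitochondrial share of that library in the values of SCAMP3, SCAMP1-AS1, TBCA and ITSN1 was not tested. EPS15 and ITSN1 each overlap genes on the opposite strand, and whether reads were counted by strand is not given in the sources used here.

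**Figure D4:**
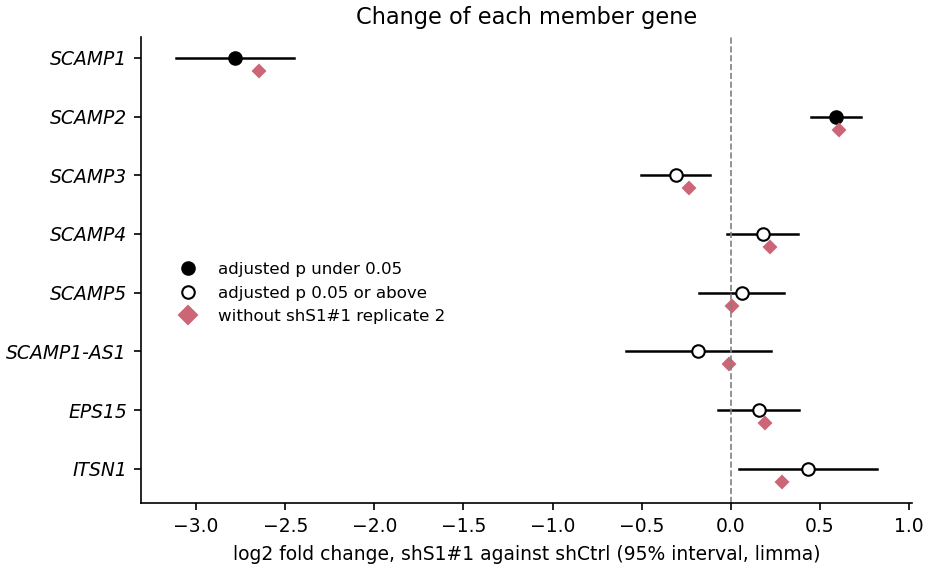
Log2 fold change of each of the 8 genes in shS1#1 against shCtrl cells with its 95% interval (limma, n = 3 each); filled circles mark an adjusted p under 0.05, and diamonds the value without shS1#1 replicate 2. SCAMP1 (-2.78) and SCAMP2 (0.59) are filled, and SCAMP3 moves from -0.31 to -0.23 and ITSN1 from 0.44 to 0.29 without that library.

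The wider group of EH-domain proteins held 11 genes (EPS15 and ITSN1 among them), of which 8 were tested. Of these, 3 (37.5%) were called, all higher, against 14% of all genes tested (22.8% when protein-coding genes were fitted alone). The median log2 fold change was 0.28, against -0.02 over all genes tested. SYNRG (gamma-synergin, an EH-domain protein that binds SCAMP1 and the AP-1 adaptor) rose from a mean of 2.14 ± 0.0847 to one of 3.70 ± 0.735 FPKM (SD, n = 3 each), which is 0.74 on the log2 scale (adjusted p = 0.0213 by limma). EHD1, an ATPase of the recycling endosome, rose from 11.4 ± 0.434 to 16.7 ± 1.90 FPKM (log2 fold change 0.55, adjusted p = 0.0145). ITSN2, the paralog of ITSN1, rose from 4.03 ± 0.157 to 5.32 ± 0.475 FPKM (log2 fold change 0.39, adjusted p = 0.0368). EPS15L1, the paralog of EPS15, was at 4.97 ± 0.188 and 4.92 ± 0.341 FPKM (log2 fold change -0.01, 95% interval -0.21 to 0.18, adjusted p = 0.920). The levels of SYNRG, EHD1 and ITSN2 were highest in shS1#1 replicate 2, as for ITSN1. Without it the log2 fold changes were 0.59, 0.46 and 0.33, and all 3 were called. SYNRG and EHD1 were called in 3 and ITSN2 in 2 of the 6 fits that left out 1 library, and with the replicate number as a block none of the 3 was called (adjusted p = 0.0556, 0.0530 and 0.112 by limma). In the fit with the block 6.16% of all genes tested were called, and the labels do not say whether same-numbered libraries belong together.

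Of 10 adaptors that carry NPF motifs, 9 were tested and 2 (22.2%) were called, both higher, against 14% of all genes tested. Over protein-coding genes fitted alone the share called was 22.8%. The median log2 fold change was 0.15. EPN3, an epsin, was at 15.03, 15.7 and 16.3 FPKM in shCtrl and at 24.0, 25.0 and 23.3 FPKM in shS1#1 libraries (log2 fold change 0.62, adjusted p = 0.00261 by limma). Its paralogs EPN1 and EPN2 had log2 fold changes of -0.05 (adjusted p = 0.607) and 0.04 (adjusted p = 0.741). SYNJ1, a phosphoinositide phosphatase that acts in the uncoating of clathrin-coated vesicles, rose from 1.65 ± 0.0767 to 2.77 ± 0.376 FPKM (n = 3 each; SD; log2 fold change 0.70, adjusted p = 0.0162), and was called in 2 of the 6 fits that left out 1 library.

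In the clathrin-mediated endocytosis machinery, 26 of 31 genes were tested and 4 (15.4%) were called, against 14% of all genes tested. Over protein-coding genes fitted alone the share called was 22.8%. Of the 4, 3 were higher and 1 lower, and the median log2 fold change of the list was 0.05. CLTB, a clathrin light chain, was at 121, 123 and 127 FPKM in shCtrl and at 254, 210 and 256 FPKM in shS1#1 libraries, which is 0.95 on the log2 scale (95% interval 0.71 to 1.18, adjusted p = 0.00237 by limma). The other light chain, CLTA, was at 67.7 ± 0.400 and 71.9 ± 9.32 FPKM (log2 fold change 0.08, adjusted p = 0.658), and was called higher without shS1#1 replicate 2 (log2 fold change 0.19, adjusted p = 0.0120). In the fit without that library 27.8% of all genes were called, and over all 4 lists 16 genes were called higher and 5 lower. FCHO2, an early factor of coated pit formation that binds EPS15, was at 6.34, 6.91 and 6.47 FPKM in shCtrl and at 12.5, 12.6 and 12.9 FPKM in shS1#1 libraries (log2 fold change 0.94, adjusted p = 0.000696). DAB2, a cargo adaptor, was at 0.286 ± 0.0168 and 1.18 ± 0.131 FPKM (n = 3 each, SD), from 33 to 138 reads per library. Its log2 fold change was 1.73 (adjusted p = 0.00657 by limma). It passed the filter of 0.5 FPKM on the mean of all libraries only through its shS1#1 values.

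Of 10 proteins known to bind or modify SCAMPs, 8 were tested and 2 (25%) were called, both higher, against 14% of all genes tested. Over protein-coding genes fitted alone the share called was 22.8%. The median log2 fold change was 0.20. TSG101, an ESCRT subunit, was at 5.93, 6.11 and 6.10 FPKM in shCtrl and at 7.81, 7.50 and 7.60 FPKM in shS1#1 libraries (log2 fold change 0.33, adjusted p = 0.0183 by limma). ARF6, a GTPase of the plasma membrane that binds SCAMP2, rose from 45.5 ± 1.84 to 53.9 ± 0.955 FPKM (n = 3 each; SD; log2 fold change 0.25, adjusted p = 0.0481). TSG101 and ARF6 were each called in 1 of the 6 fits that left out 1 library, the one without shS1#1 replicate 2, and ARF6 in 6 of 16 alternatives. EGFR was at 18.5, 18.0 and 18.3 FPKM in shCtrl and at 14.3, 22.8 and 16.1 FPKM in shS1#1 libraries, so that shS1#1 replicate 2 lay above and the other shS1#1 libraries below all shCtrl libraries (log2 fold change -0.07, adjusted p = 0.799). Without replicate 2 it was lower (log2 fold change -0.27, adjusted p = 0.0225).

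Over the 4 lists, 11 of 51 genes tested (21.6%) were called, 10 higher and 1 lower, against 14% of all genes tested. All list genes are protein-coding, and when protein-coding genes were fitted alone 12 list genes (23.5%) were called, near the 22.8% of all protein-coding genes. CLTB, FCHO2, DAB2 and EPN3 were called in all 6 fits that left out 1 library. DAB2, counted among the 11, was tested only because its shS1#1 values lifted its mean over the filter. Without shS1#1 replicate 2 the count was 21, which included all 11, with 16 higher and 5 lower, and 27.8% of all genes were called in that fit. Without any 1 of the shCtrl libraries it was 4, where 5.19% to 5.52% of all genes were called.

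**Figure D5:**
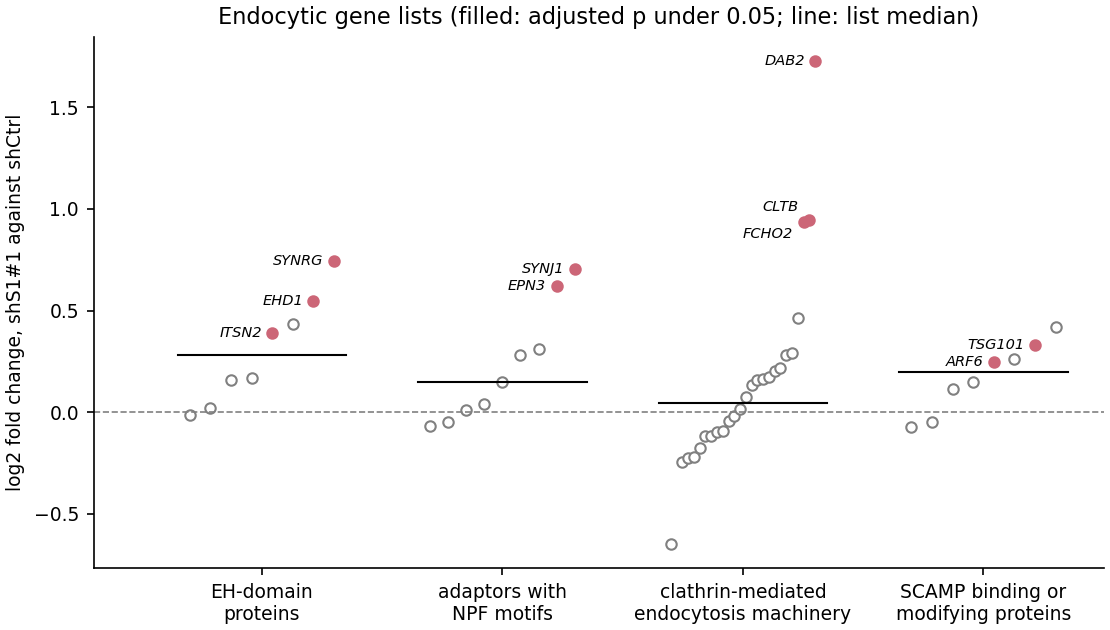
Log2 fold change in shS1#1 against shCtrl cells of genes tested in the 4 endocytic lists, ordered by value within a list; filled points are called (adjusted p under 0.05) and named, and black lines are the list medians (0.28, 0.15, 0.05 and 0.20 from left to right). The 10 called genes plotted are higher in shS1#1 cells, and the gene called lower is not plotted but counts in its list's median.

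The pattern of SCAMP1 over the 6 libraries was most like that of WNT11 (Pearson r = 0.998 between log2 values), DHRS2 (0.997), IMPDH2 (0.996), LBR (0.995) and DDX18 (0.995), among the 6576 protein-coding genes that averaged 5 FPKM or more. The 6 points form 2 groups, so these values describe a lower level in shS1#1 cells and the order within groups, and have no test. WNT11, a secreted Wnt ligand, had a log2 fold change of -2.02 and DDX18, an RNA helicase, one of -0.31, so that genes with nearly the same pattern differed widely in the size of their change.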

How the data were processed

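Per gene and library, FPKM is the unit of the values the authors deposited. The submitters' processing notes name HISAT2 2.0.5, featureCounts 1.5.0-p3, DESeq2 1.20.0 and hg38, without their roles. All 58735 gene coordinates equalled GENCODE 29. FPKM multiplied by gene length was a whole multiple of 1 step per library (tolerance 0.01) for 100% of values above 0, which gave the reads per gene.

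limma 3.58.1 (R 4.3.3; lmFit, eBayes with trend) was fitted to log2(FPKM + 0.1) for genes averaging 0.5 FPKM or more, with Benjamini-Hochberg adjustment across all 15556 genes, and was tested on simulated reads. Sums and shares were compared by exact permutation (scipy 1.17.1). Alternatives changed the pseudocount, filter, scaling, trend, gene set, test (voom on recovered reads), replicate block and libraries. The members and lists were chosen with earlier results of these data known. Genes named are the 8 members, called list genes (at most 6 per list, of which 1 is not reported here), genes tested within 500 kb of SCAMP1 (at most 8), genes overlapping a member, the 5 most like SCAMP1 by Pearson r, and, chosen after their values were seen, the paralogs EPS15L1, EPN1, EPN2 and CLTA, and EGFR. Protein sequences were not used here.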

Additional observations from a re-analysis of the deposited data

How the results depend on the processing

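SCAMP1 and SCAMP2 were called in each of the 16 alternatives with an adjusted threshold. The count of genes called over all genes was 2177 (1372 higher, 805 lower), and over the fits that left out 1 library it ranged from 808 to 4330 (644 to 2280 higher, 164 to 2050 lower), with the lowest count without shCtrl replicate 2 and the highest without shS1#1 replicate 2. The same fits gave 4 to 21 called genes in the endocytic lists, against 11: 4 without any 1 shCtrl library, 7 without shS1#1 replicate 3 and 21 without shS1#1 replicate 2. With an unadjusted p under 0.05 by limma, 4782 genes passed (2498 higher, 2284 lower), or 30.7% of those tested. They held 23 of the 51 list genes tested and 4 of the 8 members, SCAMP3 and ITSN1 in addition. Without the filter, 33572 genes were tested and 1614 (4.81%) were called, 1100 higher and 514 lower.

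With the replicate number as a block, 958 genes were called (704 higher, 254 lower), or 6.16% of those tested. Of the list genes tested, 5 (9.80%) were called. Same-numbered libraries did not deviate together (correlations of -0.035, 0.032 and 0.067). These values cannot show whether same-numbered libraries were handled together, and the labels do not say. SYNRG, EHD1, SYNJ1, ITSN2, TSG101 and ARF6 lost their call in this fit. For the sums and shares the block left the differences as they were, for example -14.5 percentage points for SCAMP1 and 18.2 for SCAMP2, with an exact p of 0.25, the smallest that 3 pairs allow, for all but SCAMP5.

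SCAMP3 was also called with a filter of 1 FPKM (adjusted p = 0.0481), quantile normalization (0.0250), protein-coding genes only (0.0364) and voom on recovered reads (0.0412), at log2 fold changes of -0.31 to -0.30. The share of SCAMP5 was 0.755 percentage points higher in shS1#1 cells, but -0.36 among SCAMP2 to SCAMP5 only. Depth limits SCAMP1-AS1 most, with 74 to 141 reads per library.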

Other observations

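The 3 EH-domain genes that averaged under 0.5 FPKM entered no comparison, and were chosen for description after the values were seen. REPS2, an EH-domain protein, averaged 0.230 ± 0.0356 FPKM under shCtrl and 0.451 ± 0.0746 FPKM with the hairpin (SD, n = 3 each), from 37 to 82 reads per library. EHD3, a paralog of EHD1, averaged 0.0812 ± 0.0154 and 0.213 ± 0.0633 FPKM, from 5 to 18 reads. EHD2, a further paralog, averaged 0.0848 ± 0.0319 and 0.0717 ± 0.0474 FPKM, from 1 to 7 reads. Groups were fully separate for REPS2 and EHD3 and overlapped for EHD2, against 41.4% of the genes tested with fully separate groups, and none of the 3 was tested.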
